A study of Drosophila melanogaster with 4 samples.

Results

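Drosophila mucins and peritrophic matrix proteins were followed here in guts of flies raised with and without added manganese. The genes were chosen by name: every gene whose current symbol begins with Muc or Mur and a digit, with Peritrophin or with obst-, together with Gasp and the drosocrystallin gene, long called dcy and now Crys. This gave 32 genes among the 13932 identifiers of the table. They comprise 13 mucins (Muc), 6 mucin-related genes (Mur), 3 peritrophins, 9 genes of the obstructor family (obst, with Gasp counted among them) and Crys. The animals were wild-type females of the Oregon R-C genotype fed a chemical diet with either no manganese added or 5 ppm manganese. Groups of 10 females and 10 males laid eggs on that food for 5 days, and newly emerged daughters spent a further 5 days on fresh food of the same composition. Each diet has 2 gut RNA libraries, called no-Mn B and no-Mn C or 5-ppm B and 5-ppm C after the letters in the table's columns, and values are given in that order. The labels do not say whether B and C are separate sets of flies, so a p-value here rests on a spread that could be purely technical.

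The peritrophic matrix is the sheath that separates food and microbes from the midgut epithelium in insects. It is built of chitin fibrils, of proteins that bind them through cysteine-rich domains (the peritrophins and their obstructor relatives), and of mucins, long proteins whose serine and threonine residues carry many sugar chains. In adult Drosophila it is laid down at the cardia, at the entrance to the midgut. The first sugar of those chains is added by the Pgant transferases, enzymes that use manganese as their cofactor. Several obstructor proteins, among them obst-A and Gasp, are known mainly from the chitin of cuticle and trachea rather than from the midgut.

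Values are RPKM, reads scaled to gene length and to the library's total, so that levels can be compared between genes. Most low values of the table fall on whole reads, which puts the depth at 24399759 to 28010953 reads per library. The tissue label was borne out by its defining genes: the 8 enterocyte digestive enzymes examined summed to 24578 to 31399 RPKM, and the midgut transcription factor GATAe lay at 28.1 to 36.5 RPKM. RNA of other tissues was uneven. The 8 ovary and eggshell genes found in the table summed to 483 RPKM in no-Mn C and to 0.500, 1.07 and 2.91 RPKM in no-Mn B, 5-ppm B and 5-ppm C. The fat body list, led by the yolk proteins, summed to 330, 833, 208 and 478 RPKM, whereas 6 visceral muscle genes stayed within 577 to 645 RPKM. Most of the 833 RPKM in no-Mn C came from Yp1, Yp2 and Yp3, at 179, 391 and 235 RPKM. The other fat body genes had no such peak, with 24.5, 26.7, 10.3 and 24.7 RPKM for apolpp and 0.634, 0.875, 0.910 and 2.15 RPKM for Lsp2. The brain and corpora cardiaca list summed to 7.36 and 7.72 RPKM without manganese and 2.67 and 3.31 RPKM with it, and the Malpighian tubule list to 131 and 135 against 167 and 142 RPKM. In the first list Akh, the adipokinetic hormone gene of the corpora cardiaca, which adjoin the cardia, had 5.07 and 5.03 against 0.153 and 0.799 RPKM (limma, unadjusted p = 0.00059, adjusted p = 0.487). The other genes of that list, elav, nSyb and Syt1, stayed at 1.01 to 1.24, 0.718 to 0.918 and 0.553 to 0.589 RPKM. The gap in the list's sum thus came from Akh. The part of RNA from these tissues in the members' values was not tested. The salivary gland list summed to 20.3 to 25.6 RPKM, nearly all of it from the transcription factor gene fkh, while the secretion genes Sgs3 and Eig71Ee were listed at 0 and Sgs4, Sgs5, Sgs7 and Sgs8 stayed at or below 0.255 RPKM. The trachea and cuticle list summed to 4.32 to 6.002 RPKM and the hemocyte list to 0.611 to 1.66 RPKM.

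In level, 3 genes dominated this set, making up 91.3% of its summed mean RPKM. Mur29B, a mucin-related gene with an encoded protein of 555 residues, was the most abundant at a mean of 639 RPKM. It was followed by Muc68D, a mucin of 1514 residues, at 399 RPKM and by Peritrophin-15a, a small peritrophin of 92 residues, at 379 RPKM. Each of these ranked between 180 and 325 among all genes of a library. Crys and Muc68E followed at 57.3 and 37.3 RPKM, and the next 8 genes lay between 1.42 and 8.63 RPKM. In all, 13 of the 32 genes averaged 1 RPKM or more, the level required for testing, which 54.2% of the table reached. Another 13 lay below that level with at least some reads, and 6 were listed at 0 in all 4 libraries. For these 6, a floor of 3 reads in a library allows levels of up to 0.0105 to 0.287 RPKM, depending on gene length and library, for counting error only, and reads that the authors' counting discarded are not covered.

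**Figure D1:**
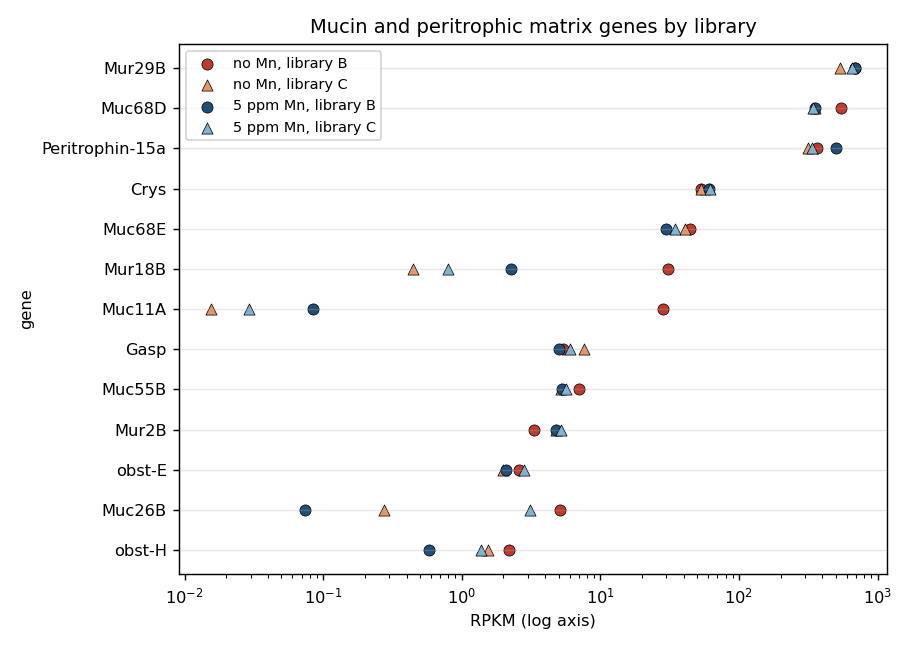
Each point is the RPKM of a gene (rows, ordered by mean) in a library, on a log axis; colour gives the diet and shape the library letter, for the 13 genes averaging 1 RPKM or more. Mur29B, Muc68D and Peritrophin-15a sit at 313 RPKM or more in every library, and Muc11A spans from 0.0156 to 28.3 RPKM.

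Neither the summed level nor any single gene separated the diets at the test's threshold. Summed over the 32 genes, the level was 1778 and 1324 RPKM in no-Mn B and C and 1651 and 1457 RPKM in 5-ppm B and C. The no-manganese libraries therefore held both the highest and the lowest sum, and the means of 1551 ± 321 and 1554 ± 137 RPKM (SD, n = 2 per diet) were close (2-sided exact permutation test, p = 1.0; the smallest p this design allows is 0.333). The 13 mucins summed to 627 and 403 RPKM without manganese and to 392.2 and 388 RPKM with it, not overlapping between the diets (exact permutation test, p = 0.333), and 542 of the 627 RPKM in no-Mn B came from Muc68D. The sums of the mucin-related genes, of the peritrophins and of the obstructor genes each overlapped between the diets. With limma across 7556 genes, 0 of the 13 tested members passed at an adjusted p under 0.05, against a background of 0% of all genes tested, and the members' adjusted p-values ran from 0.802 to 0.968. At an unadjusted p under 0.05 there was 1 member of 13, beside 5.84% of all tested genes. The diets did not overlap for 4 of the 13, 2 higher and 2 lower without manganese, where 36.9% of all tested genes showed no overlap, so the share of members was not above the background. Of the 13, 8 had a log2 fold change above 0, and so did 56.4% of all tested genes. The median log2 fold change of the 13 was 0.18, next to 0.02 over all tested genes, and it was -0.06 when no-Mn B was left out.

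**Figure D2:**
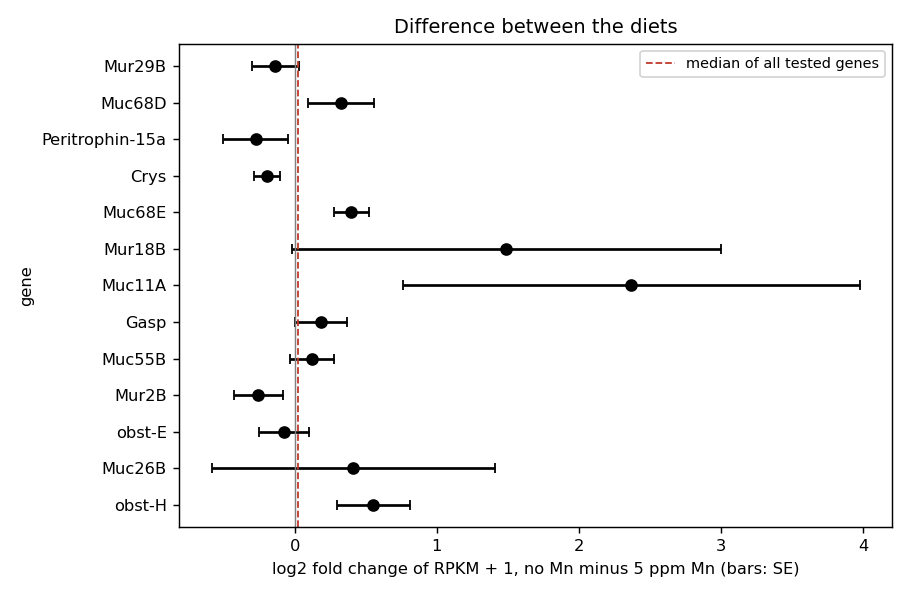
Log2 fold changes of RPKM + 1, no manganese minus 5 ppm, with standard errors for the 13 tested genes in order of level; the dashed line marks the median of all tested genes, 0.02. Muc11A and Mur18B lie farthest from 0 and have the longest bars, while Muc68E at 0.40 has a short one.

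Muc68D, Muc68E and Muc55B were the mucins above 5 RPKM in all 4 libraries. Muc68E, whose encoded protein has 1799 residues, gave the smallest unadjusted p of the set. It lay at 44.3 and 40.8 RPKM in no-Mn B and C and at 29.6 and 34.6 RPKM in 5-ppm B and C. Both no-manganese values were above both 5 ppm values, by more than the spread within either diet. The log2 fold change was 0.40 ± 0.12 (SE; limma, unadjusted p = 0.025, adjusted p = 0.802), and 0.29 to 0.51 with each library left out in turn. Muc68D had 542 and 355 RPKM without manganese and 356 and 343 RPKM with it. Here library B without manganese stood above the rest, and library C of that diet fell between the 5 ppm values (log2 fold change 0.33 ± 0.23 SE, adjusted p = 0.830 with limma). Without no-Mn B the Muc68D difference was 0.02. Muc55B, encoded on chromosome 2R, had 6.97 and 5.21 RPKM without manganese and 5.25 and 5.69 RPKM with it, so that the diets overlapped (0.12 ± 0.16 SE). Muc68D and Muc68E lie on the minus strand of chromosome 3L, at 11767299 to 11772157 and 11967343 to 11972979 of the dm6 assembly. Muc68Ca lies on the same strand from 11610578 to 11620101, a single exon with 9524 exon bases, and reached no more than 33 reads (0.133 RPKM) in a library.

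Muc11A and Mur18B were high in a single library, and Muc26B in 1 library of each diet. Muc11A, on the X chromosome, had 28.3 RPKM in no-Mn B, which corresponds to 3594 reads. In no-Mn C, 5-ppm B and 5-ppm C it had 0.0156, 0.0842 and 0.0294 RPKM, or 2, 10 and 4 reads. The library with the next highest level was thus 336-fold lower, and the other no-manganese library was the lowest of the 4. Mur18B, a mucin-related gene also on the X chromosome, had 31.0 RPKM in no-Mn B and 0.447, 2.28 and 0.796 RPKM in the other 3, in the same order. It was 13.6-fold above the next library, and again the lowest value came from the other library of the same diet. Muc26B differed between the libraries of each diet, with 5.16 and 0.273 RPKM without manganese and 0.0736 and 3.12 RPKM with it. No diet or letter was common to its high libraries, which were B without manganese and C with 5 ppm. The log2 fold changes of 2.37 ± 1.61, 1.49 ± 1.51 and 0.41 ± 1.00 (SE) for Muc11A, Mur18B and Muc26B therefore carried standard errors of the same order as the differences or larger (limma, adjusted p = 0.824, 0.885 and 0.968). Without no-Mn B they were -0.06, -0.75 and -0.72. Without no-Mn C, Muc11A alone of the 13 passed the limma test at 4.79 (adjusted p = 0.021), a value that compares library B on its own with the 5 ppm pair. With 1 library in that arm, the spread behind the p comes from the 5 ppm pair and limma's prior, and the lone library is assumed to vary alike.

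**Figure D3:**
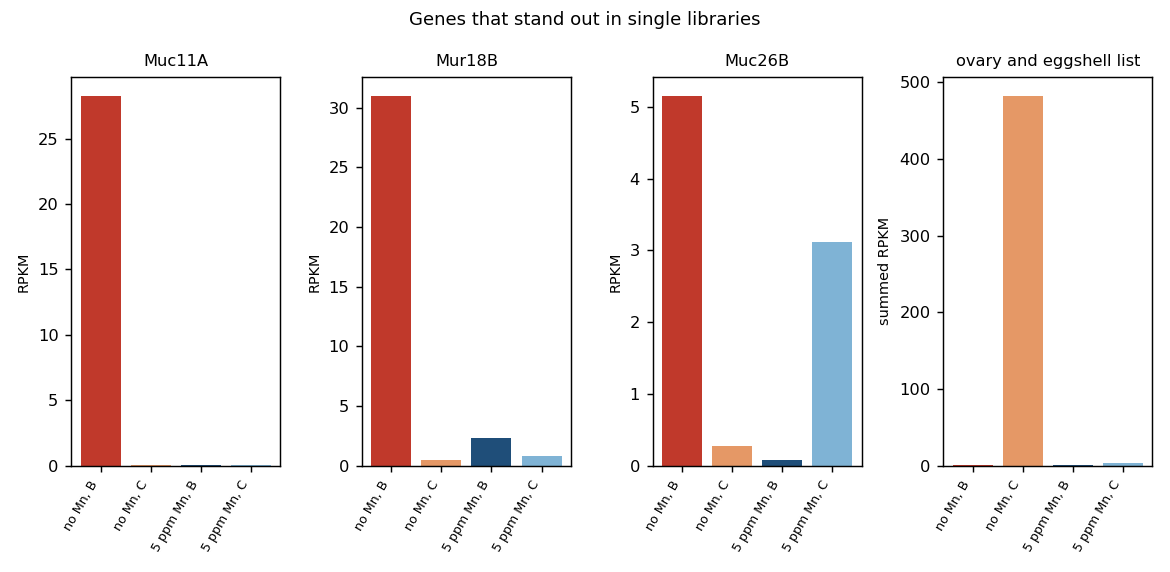
RPKM by library (bars, linear axes from 0) for Muc11A, Mur18B and Muc26B, and the summed RPKM of 8 ovary and eggshell genes. Muc11A and Mur18B stand out in no-Mn B, and the eggshell sum of 483 RPKM in no-Mn C.

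The eggshell genes were high in no-Mn C, where Muc11A and Mur18B had their lowest listed values. For Muc11A that value was 2 reads, against 10 and 4 reads in 5-ppm B and C. Of all genes of the table, 10 reached at least 10 RPKM and 10-fold above each other library in no-Mn B, and Muc11A and Mur18B were 2 of them. No-Mn C also had 10 such genes, 0 of them members, and the 5-ppm libraries had 0. Of 43 genes above 0 in the 8 marker lists for other tissues, 6 were highest in no-Mn B and 23 in no-Mn C. The 6 included the Malpighian tubule genes Uro and CapaR. Uro had 1.37 RPKM in no-Mn B against 0.211, 0.617 and 0.226 RPKM elsewhere, and CapaR 0.314 RPKM against 0.0416, 0 and 0 RPKM. Irk2 and Prestin of the same list were not highest there. Irk2 was lowest in no-Mn B, at 41.8 RPKM against 77.4, 68.2 and 67.9 RPKM. Prestin had 87.1 RPKM in no-Mn B against 57.0, 97.8 and 73.8 RPKM. The sum of the list was lowest in no-Mn B. The part of RNA from other tissues in the Muc11A and Mur18B values was not tested.

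The members differed in their spread between libraries of the same diet. The median standard deviation within a diet was 0.241 on the log2 scale for the 13 tested genes and 0.127 over all tested genes. Crys was the steadiest, with 0.701% of all tested genes having a smaller spread. Muc11A, Mur18B and Muc26B were at the other end, with 99.9%, 99.9% and 99.6% of tested genes less variable. From the lowest to the highest library the 13 differed by 1.16-fold (Crys) to 1810-fold (Muc11A, with 2 reads at its lowest). These ratios were not compared with those of all tested genes. The most abundant gene, Mur29B, had a ratio of 1.27 between its highest and lowest library.

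**Figure D4:**
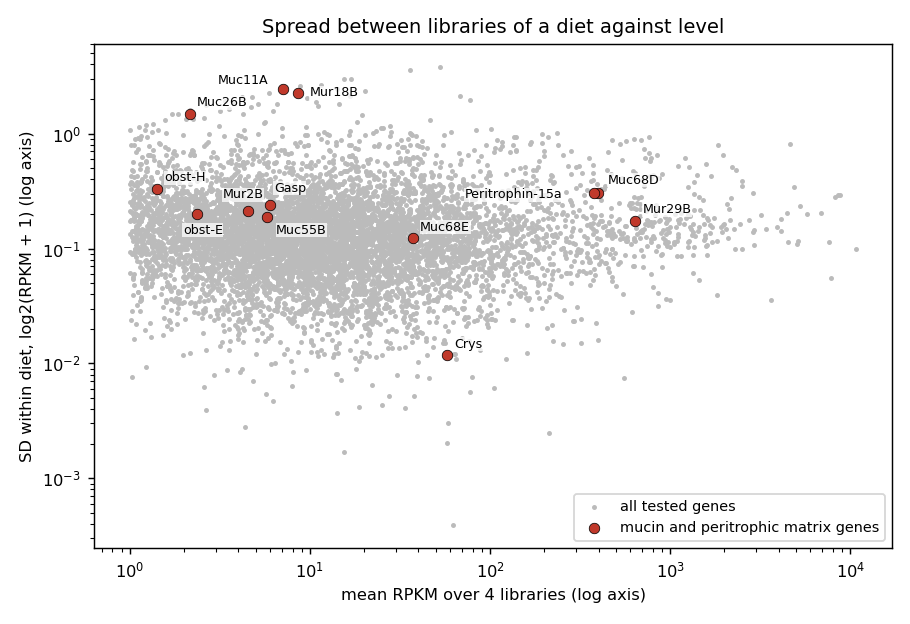
Standard deviation within a diet of log2(RPKM + 1) against mean RPKM, both on log axes, for all 7556 tested genes (grey) and the 13 members (red). Crys lies near the lower edge of the grey cloud at a mean of 57.3 RPKM, and Muc11A, Mur18B and Muc26B lie at its upper edge.

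The mucin-related genes Mur29B and Mur2B were expressed throughout. Mur29B (plus strand of chromosome 2L, 8352187 to 8355172) had 683 and 539 RPKM without manganese and 684 and 652 RPKM with it. No-Mn C was low and the other 3 were close together (log2 fold change -0.14 ± 0.17 SE, adjusted p = 0.913 with limma). Mur2B, a long X-chromosome gene with 11 exon blocks, had 3.34 and 4.79 RPKM without manganese and 4.81 and 5.18 RPKM with it. Both no-manganese values were the lower ones, although library C missed the 5 ppm range by little (-0.26 ± 0.17 SE, adjusted p = 0.824). Of Mur2B's exon bases, 3.97% are shared with genes on the same strand, whose reads cannot be told apart. Another 2.47% lie opposite br, whose reads cannot be told apart if the counting ignored strand, a setting that the sources used here do not give.

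Among the peritrophins and obstructor genes, Peritrophin-15a dominated. It had 368 and 313 RPKM in no-Mn B and C and 499 and 338 RPKM in 5-ppm B and C. 5-ppm B was the high one, and its partner fell inside the no-manganese range (log2 fold change -0.27 ± 0.23 SE, adjusted p = 0.857 with limma). Its neighbour Peritrophin-15b lies 724 bases away on the same strand of chromosome 2L and was listed at 0 in all 4 libraries. All exon bases of Peritrophin-15b lie opposite an antisense gene, and the part of that overlap in the 0 was not tested. Peritrophin-A, separated from obst-A by 1437 bases on the X chromosome, stayed at 0.0811 to 0.533 RPKM, and obst-A at 0 to 0.0798 RPKM. obst-A, a cuticle protein, thus had no more than 4 reads in a library.

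Gasp was the strongest obstructor gene, a chitin-binding protein of the tracheal lining, with 5.37 and 7.61 RPKM without manganese and 5.07 and 6.003 RPKM with it. The diets overlapped (log2 fold change 0.18 ± 0.19 SE). obst-E, a protein of the larval cuticle known for its part in body shape, had 2.57 and 1.98 RPKM without manganese and 2.09 and 2.83 RPKM with it, again overlapping (-0.08 ± 0.18 SE). obst-H had 2.18 and 1.54 RPKM without manganese, from 52 and 37 reads. With 5 ppm it had 0.582 and 1.37 RPKM, from 13 and 35 reads. The diets did not overlap for obst-H, but the 37 and 35 reads of the nearest libraries are within counting error of each other (0.55 ± 0.26 SE, limma adjusted p = 0.802). As obst-H lies close to the pseudocount of 1 RPKM, this log2 value understates the ratio of its means, 1.86 against 0.974 RPKM.

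Crys, first known as a protein of the corneal lens and later as a component of the peritrophic matrix in adult guts, showed the tightest values. It had 53.5 and 53.3 RPKM in no-Mn B and C and 60.8 and 61.8 RPKM in 5-ppm B and C. The no-manganese pair was lower than the 5 ppm pair with no overlap, and the means were 53.4 ± 0.165 and 61.3 ± 0.701 RPKM (SD, n = 2). The log2 fold change was -0.19 ± 0.09 (SE; limma, unadjusted p = 0.095, adjusted p = 0.802), and -0.21 to -0.18 with each library left out. The standard error exceeds what the library values alone give because limma draws each gene's variance towards that of genes of similar level.

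The 13 genes with reads but a mean under 1 RPKM were Muc18B, Muc96D, Peritrophin-A, obst-B, obst-G, obst-J, Muc4B, Muc68Ca, obst-A, obst-F, Muc30E, Mur89F and Muc14A. They reached at most 46 reads and 0.862 RPKM in a library and were not tested singly. Muc18B, which is separated from Mur18B by 576 bases and lies on the same strand, had 20 and 26 reads without manganese and 7 and 13 reads with 5 ppm. Its pattern differed from that of Mur18B, being higher in both no-manganese libraries. Muc96D went the other way, with 23 and 15 reads without manganese and 34 and 46 reads with it. obst-G had 8 and 4 reads against 2 and 2, and obst-J had 3 and 3 against 5 and 9. These 4 low genes did not overlap between the diets, and with them 8 of the 26 genes above 0 had no overlap, next to 33.6% of all genes above 0. Muc14A, the longest of the set with an encoded protein of 16223 residues and 48733 exon bases, collected 17, 4, 5 and 10 reads, at most 0.0134 RPKM. The genes listed at 0 in all libraries were Mur82C, Muc91C, Peritrophin-15b, obst-I, Muc12Ea and Mur11Da, and 95.9% of the exon bases of obst-I lie opposite an antisense gene.

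Genes of chitin synthesis, modification and breakdown, some of them cuticular or tracheal, were read from the same fit. Of 11 genes of chitin synthesis and modification, 4 were tested, with 1 higher and 3 lower without manganese, 0 past the threshold and a median log2 fold change of -0.21. Chs2, the chitin synthase of the gut, had 26.2 and 31.2 RPKM without manganese and 29.6 and 38.4 RPKM with it, while kkv, the cuticular chitin synthase, stayed at or below 0.0344 RPKM. The deacetylase gene Cda5 had 0.643 and 0.706 RPKM without manganese and 1.56 and 1.499 RPKM with it (-0.59 ± 0.15 SE; limma, unadjusted p = 0.011, adjusted p = 0.786). Its diets were well apart although its level is near the testing limit. mmy, which makes the activated sugar that chitin synthase uses, had 59.2, 43.7, 59.4 and 56.7 RPKM, no-Mn C being the low library. Of 19 chitinases, chitinase-like growth factors and hexosaminidases in the table, 14 were tested, 6 higher and 8 lower, with 0 past the threshold and a median of -0.05. Beside both lists, 56.4% of all tested genes were higher without manganese. The chitinases Cht8, Cht4 and Cht2 had the smallest p-values, with log2 fold changes of 0.27 ± 0.14, 0.49 ± 0.32 and 0.22 ± 0.15 (SE).

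The transferases that build mucin sugar chains mostly had log2 fold changes above 0, and none passed. Of 12 tested, 9 were higher and 3 lower without manganese, where 56.4% of all tested genes were higher. Of the 12, 6 were higher without overlap between the diets, as were 21.7% of all tested genes. Their median log2 fold change came to 0.13, and 0 of the 12 reached an unadjusted p under 0.05. tgy, related to the enzyme that adds the second sugar, had 22.1 and 21.8 RPKM without manganese and 18.5 and 19.3 RPKM with it (0.21 ± 0.09 SE; limma adjusted p = 0.802). Pgant4, needed in larvae for secretion of the peritrophic matrix, had 25.3 and 20.8 RPKM against 19.5 and 17.1 RPKM (0.31 ± 0.14 SE), and Pgant7 had 2.40 and 3.65 RPKM against 2.06 and 1.91 RPKM (0.42 ± 0.19 SE). All 3 were above the 5-ppm libraries in both no-manganese libraries, by differences that did not pass the test.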

How the data were processed

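The authors deposited a table of RPKM values with 1 column per library; the tools named in the submitters' processing notes are STAR 2.5.2b and DESeq2, with dm6 as the build and no step tied to either tool. How reads were counted, whether strand was used and what became of reads matching several places is not stated in those notes. Columns were assigned to a diet by name, since the letters B and C occur in no label. Of 13932 identifiers, 13852 had a current symbol. Positions, exon lengths and encoded protein lengths were taken from Ensembl's BDGP6 annotation, which has dm6 coordinates, and dcy was matched to Crys through RefSeq synonyms. Reads were recovered as RPKM times exon length times a library divisor. Of values under 20 reads, 84.5% to 85.5% came within 0.02 of a whole number; for a few members the product was not whole, and for these no reads are given. No protein or promoter sequence was used here.

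Differences were tested with limma (version 3.58.1, R 4.3.3), 2-sided, using log2(RPKM + 1) and a variance trend, for the 7556 genes averaging 1 RPKM or more, with Benjamini-Hochberg adjustment over all of them at a threshold of 0.05. Fold changes are on that scale and understate the change of low genes. The fit was also run on simulated data with known changes, where it missed most of the smaller ones. Those changes were placed in well expressed genes only, and the noise of each library was drawn without regard to the gene. The share missed therefore need not hold for these data or for low genes. Alternatives were other pseudocounts, filters, scalings and variance priors, a block for the library letter, and leaving out each library. Named were all members, with their values by library above the filter, and up to 3 genes of each chitin and glycosylation list by smallest p; genes of the marker lists, kkv and GATAe were named after their values were seen. The members and lists were chosen with earlier results of these data known.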

Additional observations from a re-analysis of the deposited data

How the results depend on the processing

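No member passed with all 4 libraries in use, under any pseudocount, filter, scaling, variance prior or block tried. The count of genes past the adjusted threshold was 0 under each of these and 0 to 11 with 1 library left out (11 without no-Mn B, 5 without no-Mn C). At an unadjusted p under 0.05 there were 441 genes, 683 with no filter, 329 to 590 with 1 library left out, and 878 with the library letter as a replicate block, where the members' smallest adjusted p was 0.382. Libraries of the same letter deviated together (correlation 0.34 across genes), but nothing in the labels says that a letter marks a shared batch, so the block was not used in the report. The members with no overlap were 4 of 13 in the main fit, 8 of 26 with no filter and 2 of 9 at a mean of at least 5 RPKM. The shares of all genes in these settings were 36.9%, 33.6% and 39.1%. With 1 library left out, 6 to 11 of the 13 had no overlap, where 66.8% to 70.3% of all genes had none. The median log2 fold change of the members was -0.0584 to 0.301 with 1 library left out, and the log2 ratio of the summed RPKM, 0.00 with all libraries, was -0.23 to 0.19.

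With 1 library left out, the sign turned for Gasp (-0.0334 to 0.402), Muc11A (-0.0568 to 4.79), Muc26B (-0.72 to 1.55), Muc55B (-0.0584 to 0.301), Mur18B (-0.75 to 3.72), Mur29B (-0.310 to 0.0328), obst-E (-0.230 to 0.0761) and Peritrophin-15a (-0.555 to 0.00609), and held for Crys, Muc68D, Muc68E, Mur2B and obst-H. For Crys, Muc68E, Mur2B and obst-H it could not turn, because their diets did not overlap. The cause was not tested. The members with reads under the testing level had at most 46 of them in a library, and 2 libraries a diet limit every comparison.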

Other observations

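The other genes that stood at least 10-fold above each other library in no-Mn B were CG14245, CG14963, CG16762, Nepl9, Scp2, TotA, TotC and TotM; they were picked after their values were seen. TotA, TotC and TotM belong to the Turandot family of stress-induced secreted proteins. TotA had 53.4 RPKM in that library, 3.41 RPKM in no-Mn C, and 0.425 and 0.863 RPKM in 5-ppm B and C. CG14245 had 44.3 RPKM and no more than 1.13 RPKM in the other libraries. In no-Mn C the 10 genes were RpS5b, Vm26Aa, Vm26Ab, Vm26Ac, Vm32E, Vm34Ca, Vml, dec, osk and psd, most of them components of the eggshell.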
